A study of Mus musculus with 12 samples.

Results

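The genes described here are 10 members of the BCL2 family of cell death regulators, picked by symbol from the 53465 genes of the deposited expression table. They comprise the anti-apoptotic genes Bcl2, Bcl2l1, Bcl2a1b and Mcl1, the effector genes Bax and Bak1, and the BH3-only genes Bcl2l11, Bid, Bbc3 and Pmaip1. All 10 passed the filter on low values (1 or more in 3 or more of the 12 libraries) and so were among the 20419 genes tested. The libraries hold RNA of peritoneal macrophages from C57BL/6 mice aged 10 weeks, in 4 groups of 3: Lyz2Cre control, Lyz2Cre with lipopolysaccharide (LPS), Lyz2Cre-BHLHE40-Fl control and Lyz2Cre-BHLHE40-Fl with LPS. Every group carries Lyz2Cre, in which the Cre recombinase is made from the lysozyme 2 locus, active in macrophages and in other myeloid cells such as neutrophils. Fl stands beside the name of BHLHE40, a transcription factor of the basic helix-loop-helix class, which binds E-box DNA, and which part of its gene was flanked for deletion is not given in the sources used here. LPS is a bacterial outer membrane component sensed through TLR4, and its dose, its time and its route are likewise not given. The labels do not tell whether the 3 replicates of a group are separate mice, pools of mice or repeated preparations, so each p-value is set against a spread between libraries that may be only technical.

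Proteins of the BCL2 family set the threshold at which the outer mitochondrial membrane becomes permeable and releases cytochrome c. BAX and BAK form the pore, the anti-apoptotic proteins BCL2, BCL-XL, A1 and MCL1 hold them and the BH3-only proteins in check, and BH3-only proteins such as BIM, BID, PUMA and NOXA relay stress signals by binding either side. In macrophages, survival under inflammatory stimulation is known to lean on MCL1 and A1, both short-lived proteins whose genes respond to cytokines and TLR ligands, while BIM is a main trigger of myeloid cell death. Much of the regulation in this family is on the protein, which RNA levels do not show.

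Each value is a gene's read number divided by a factor for its library. A mean ± SD is over the 3 libraries of a group (n = 3). Libraries held 20489417 to 29354869 reads. Bhlhe40 itself, read over the whole gene, was not lower in the libraries labelled Lyz2Cre-BHLHE40-Fl without LPS: it stood at 4886, 4737 and 5306 in the Lyz2Cre controls and at 8046, 7617 and 8016 in the BHLHE40-Fl-labelled controls. With LPS it stood at 2544, 2212 and 2644 and at 1956, 2415 and 2327, and these libraries overlapped. The gene count therefore does not check the genotype label, and groups are named by their labels throughout. The 10 macrophage markers were above 0 in all libraries, and their summed level was 146013 to 163626 in Lyz2Cre controls, 189604 to 202754 in Lyz2Cre LPS, 69635 to 77269 in BHLHE40-Fl-labelled controls and 93602 to 97822 in BHLHE40-Fl-labelled LPS libraries. Cd68 was the largest part of these sums and differed little, with means of 45308, 47261, 44204 and 41444 in that order. Other markers differed more between genotype labels than the sums. Adgre1 had means of 30456, 38486, 5635 and 12480, and C1qa of 11102, 12307, 1048 and 1049. In the same order, 12 markers of mesothelium and stroma summed to 1951 to 2119.5, 3149 to 4621, 11007 to 14192 and 11853 to 15726, with the mesothelial gene Upk3b at 0 in all 6 Lyz2Cre libraries. The 6 monocyte markers summed to 5674 to 6472, 18385 to 19422, 383 to 452 and 18119 to 19277, the 8 B cell markers to 1406 to 1553, 2033 to 2449.8, 262 to 339.7 and 175 to 236, and the 10 neutrophil markers, of which Ly6g was at 0 in all 12 libraries, to 423 to 758, 982 to 1233, 97.9 to 132 and 136 to 234. The monocyte sums with LPS were carried by Vcan, with means of 14857 and 18341, while Ly6c2 stood at 1425 in Lyz2Cre LPS and 13.7 in BHLHE40-Fl-labelled LPS libraries, F13a1 at 2408 and 99.7 and Ccr2 at 69 and 9.67. S100a8 carried the neutrophil sums in Lyz2Cre libraries, with means of 573 without and 932 with LPS. Of 5 tested neutrophil markers, 3 were called lower and 2 higher in BHLHE40-Fl-labelled than in Lyz2Cre controls. Cxcr2 (22 against 1.63) and Ltf (28.8 against 6.6) had the higher means there. The 8 T cell and NK cell markers summed to 134 to 164, 450.2 to 541, 58.7 to 68.6 and 1039 to 1309.7 and the 6 dendritic cell markers to 133 to 166, 172 to 201, 67 to 87.4 and 142 to 169. Lck carried the T cell and NK cell sums with LPS (means of 374 and 1133), while Cd3e was at 0 in all 6 BHLHE40-Fl-labelled libraries. The 7 large peritoneal macrophage markers summed to 358 to 408, 318 to 334, 485.5 to 576 and 404 to 429. The 7 mast cell markers summed to 48.6 to 97.2, 1177 to 1205, 29.7 to 44.2 and 4084 to 4268, with 1 of them called higher with LPS in each genotype. Mitochondrial genes took 0.985% to 1.37% of reads in Lyz2Cre controls, 0.486% to 0.600% in Lyz2Cre LPS, 1.20% to 1.63% in BHLHE40-Fl-labelled controls and 0.756% to 1.92% in BHLHE40-Fl-labelled LPS libraries, so that this share was lower in each Lyz2Cre LPS library than in any other, and its part in the differences below was not tested. Scaling all libraries to equal totals in place of the deposited factors shifted the median of all tested genes to -0.58 for LPS in Lyz2Cre, -0.56 for LPS in the other genotype, 0.17 and 0.22 for genotype without and with LPS, and 0.06 for the interaction, all as log2 differences. The share of called genes that were higher moved with it, from 51.2% to 20.1%, from 49.3% to 21.5%, from 47.5% to 66.9%, from 47.2% to 73.5% and from 50.5% to 64.1%, in that order.

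The 10 genes spanned a wide range of levels. Per kilobase of exon, Mcl1 had the highest level in all 4 groups, Bcl2a1b the next and Bak1 the one after. Mcl1 stood at 7191 ± 342 per kilobase in Lyz2Cre controls, Bcl2a1b at 1424 ± 590.2 and Bak1 at 1031 ± 109.8. Bcl2 was 8th of the 10 in Lyz2Cre controls, at 73.8 ± 3.98, and last in the other 3 groups, with a mean of 6.59 per kilobase in BHLHE40-Fl-labelled LPS libraries. In bulk RNA such as this, fewer cells of a type and less RNA per cell cannot be told apart.

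**Figure D1:**
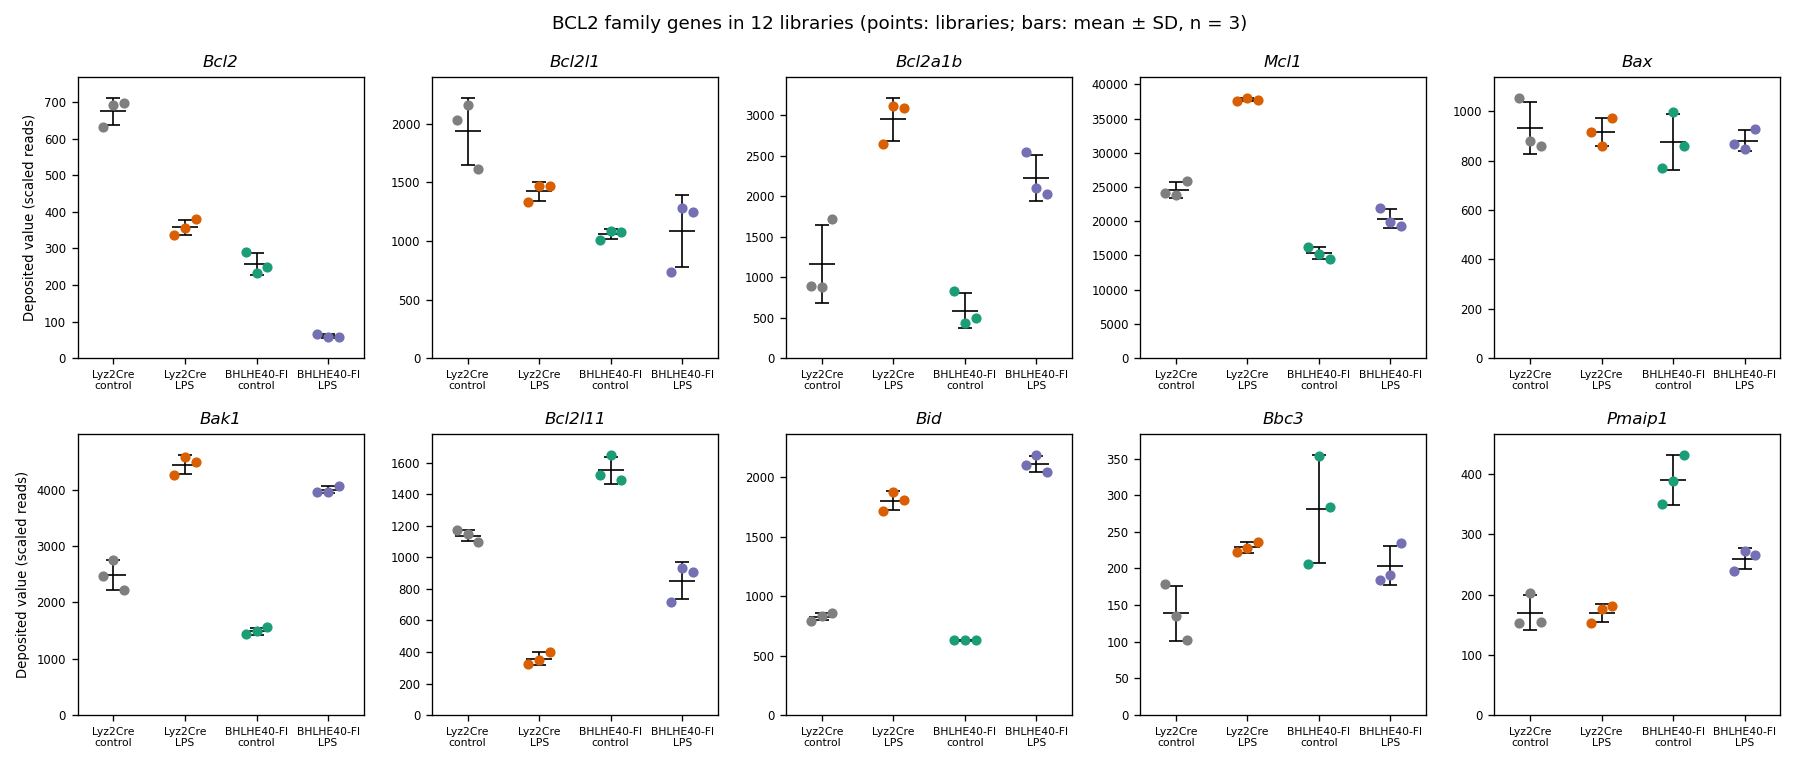
Deposited value (scaled reads, linear axes from 0) of each of the 10 genes in the 12 libraries, with points for libraries and bars for mean ± SD (n = 3). Bcl2 has means from 676 in Lyz2Cre controls to 60.4 in BHLHE40-Fl-labelled LPS libraries, Bax stays between 771 and 1055 in every library, and Bcl2l11 is lowest in the Lyz2Cre LPS libraries.

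LPS in Lyz2Cre libraries raised 5 of the 10 genes and lowered 3, against 48.9% of all tested genes called (25% higher and 23.9% lower, limma with Benjamini-Hochberg adjusted p below 0.05). Bcl2a1b rose the furthest, by 1.41 on the log2(value + 1) scale, followed by the caspase 8 substrate gene Bid (1.12), the effector gene Bak1 (0.85), the BH3-only gene Bbc3 (0.75) and, on the deposited scale but not with equal library totals or quantile normalization, Mcl1 (0.62). Bcl2l11, which encodes BIM, fell by 1.68, Bcl2 fell by 0.92 and Bcl2l1, which encodes BCL-XL, fell by 0.43. Bax and Pmaip1 were not called. The library values of 8 of the 10 genes did not overlap between the LPS and control groups, as for 54.5% of all tested genes. The median log2 change of the 10 was 0.31, beside 0 for all tested genes. With equal library totals 2 of the 10 were called higher and 5 lower.

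Of the 10 genes, LPS raised 4 and lowered 3 in BHLHE40-Fl-labelled libraries, where 50.5% of all tested genes were called (24.9% higher and 25.6% lower). Bcl2a1b (1.97), Bid (1.74) and Bak1 (1.42) rose again, as did Mcl1 (0.41) on the deposited scale but not with equal library totals or quantile normalization. Bcl2 fell by 2.07, Bcl2l11 fell by 0.87 and Pmaip1, which encodes NOXA, fell by 0.58 on the log2 scale. Bcl2l1, Bax and Bbc3 were not called. Libraries of 7 of the 10 genes did not overlap between treatments, beside 55.6% of all tested genes. The median of the 10 was 0.01 and that of all tested genes -0.05. With equal library totals 3 of the 10 were called higher and 7 lower.

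**Figure D2:**
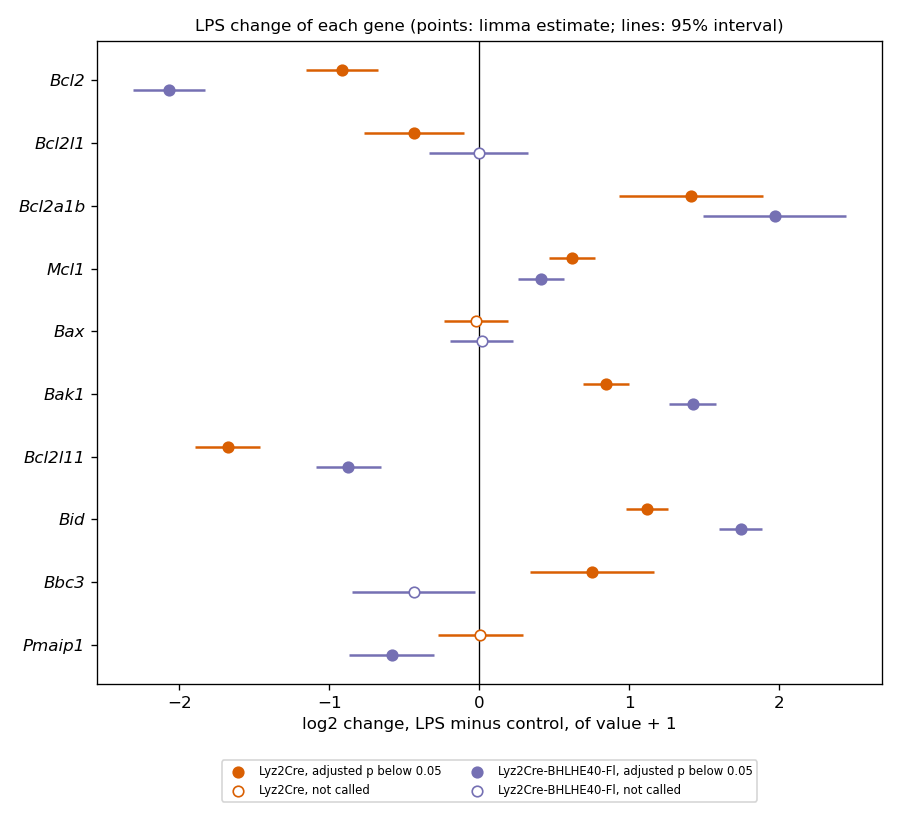
Log2 change with LPS (x axis, log2 of value + 1, LPS minus control) of the 10 genes in each genotype label, with points for limma estimates, lines for unadjusted 95% intervals and filled points for adjusted p below 0.05. Bcl2 lies further left in the BHLHE40-Fl-labelled libraries (-2.07 against -0.92) and Bcl2l11 further left in the Lyz2Cre libraries (-1.68 against -0.87).

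A test of the difference between these LPS changes (the interaction of genotype and treatment) called 6 of the 10 genes, 3 in each direction, beside 18.8% of all tested genes (9.52% higher and 9.31% lower). Bcl2 fell further in the BHLHE40-Fl-labelled libraries, with an interaction of -1.15. Bid (0.62) and Bak1 (0.58) rose further there, and Bcl2l11 fell less (0.80). Bbc3 rose with LPS in the Lyz2Cre libraries and stood lower, without passing the test, in the others, an interaction of -1.19. Pmaip1 was called at -0.59, but not with equal library totals or in edgeR. The LPS changes of Mcl1 (-0.21, 95% interval -0.42 to 0.01), Bcl2a1b (0.56, -0.12 to 1.23), Bcl2l1 (0.43, -0.04 to 0.90) and Bax (0.04, -0.26 to 0.33) were not called different between genotype labels.

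Without LPS, the anti-apoptotic genes were all lower in the libraries labelled Lyz2Cre-BHLHE40-Fl and 3 of the 4 BH3-only genes were higher. Of the 10 genes, 3 were called higher and 6 lower, beside 31.6% of all tested genes (15% higher and 16.6% lower). Differences, BHLHE40-Fl-labelled minus Lyz2Cre, ran from -1.40 for Bcl2 to 1.20 for Pmaip1, with a median of -0.54 beside 0 for all tested genes. All 4 anti-apoptotic genes were called lower with the deposited values, with equal library totals and with quantile normalization alike, and the 3 higher BH3-only genes, Bcl2l11, Bbc3 and Pmaip1, were called higher under each of these. The 9 called genes were those whose libraries did not overlap, as in 41.3% of all tested genes. In the same libraries 9 of the 10 macrophage and 4 of the 6 monocyte markers were called lower. So were 5 of the 8 T cell and NK cell markers and 3 of the 5 tested dendritic cell markers, with 1 dendritic cell marker higher. Of the 8 B cell markers 2 were lower (4 with quantile normalization), as were 2 of the 7 mast cell markers. Large peritoneal macrophage markers went both ways, with 2 of 7 higher and 3 lower (2 with equal library totals). Among them, Gata6 had a mean of 333 against 24.7 and Prg4 of 1.73 against 43.7. Of 3 tested eosinophil markers 1 was higher and 1 lower. All 12 mesothelium and stroma markers were called higher. The part of all these markers in the differences was not tested. This comparison shares its Lyz2Cre controls with the LPS comparison of that genotype and its BHLHE40-Fl-labelled controls with the other.

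With LPS in both genotypes, 3 of the 10 genes were called higher and 3 lower in the BHLHE40-Fl-labelled libraries, beside 37.4% of all tested genes (17.7% higher and 19.8% lower). Bcl2 (-2.55), Mcl1 (-0.89) and Bcl2l1 (-0.43) were lower. Bcl2l11 (1.25), Pmaip1 (0.61) and Bid (0.23) were higher. Bcl2 and Mcl1 were called lower, and the 3 BH3-only genes higher, also with equal library totals and with quantile normalization, while Bcl2l1 was not (adjusted p = 0.518 and 0.166). The median of the 10 was -0.16, beside -0.02 for all tested genes. Libraries of 8 of the 10 did not overlap between genotype labels, as in 45.9% of all tested genes. Again 9 of the 10 macrophage markers were called lower (8 with quantile normalization), as were 5 of the 6 monocyte markers, the other, Vcan, being higher. Also lower were 6 of the 8 T cell and NK cell markers (5 with equal library totals), with Lck higher. Of the 5 tested dendritic cell markers 3 were called lower and 1 higher. Of the 8 B cell markers 3 were lower (1 with equal library totals, 4 with quantile normalization). Of the 7 large peritoneal macrophage markers 2 were higher and 3 lower (2 with equal library totals), and of the 7 mast cell markers 1 was higher and 2 lower. The 3 tested eosinophil markers were not called. All 12 mesothelium and stroma markers were higher. The part of these markers was not tested.

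**Figure D3:**
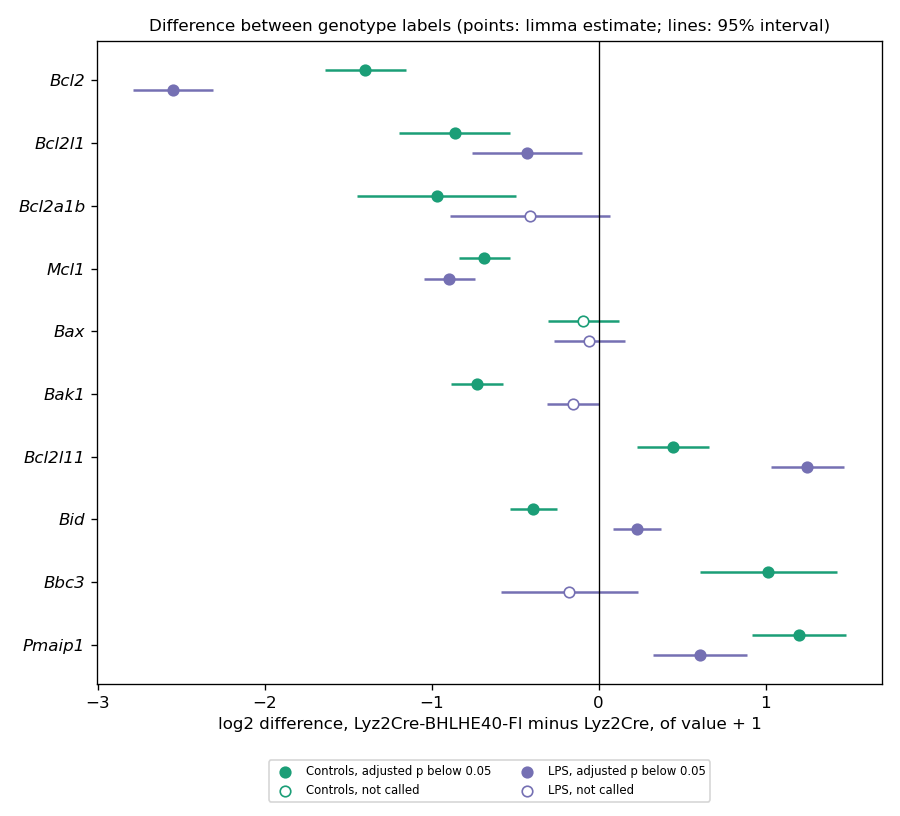
Log2 difference between genotype labels (x axis, log2 of value + 1, Lyz2Cre-BHLHE40-Fl minus Lyz2Cre) of the 10 genes in controls and with LPS, with points for limma estimates, lines for unadjusted 95% intervals and filled points for adjusted p below 0.05. The 4 anti-apoptotic genes lie left of 0 in controls, from -0.68 to -1.40, and Pmaip1 (1.20), Bbc3 (1.02) and Bcl2l11 (0.45) lie right of it.

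Bcl2 (ENSMUSG00000057329, chr1:106538178-106714274, minus strand in mm10) encodes the founding anti-apoptotic protein of the family. Its 3 Lyz2Cre control libraries held 634, 694 and 699, and with LPS 338, 356 and 379.5. The BHLHE40-Fl-labelled libraries held 290.1, 232 and 249 without LPS and 65.5, 56.7 and 58.9 with it. No library of any group overlapped another group, and the order of means ran from Lyz2Cre controls (676) through Lyz2Cre LPS (358) and BHLHE40-Fl-labelled controls (257) to BHLHE40-Fl-labelled LPS (60.4). LPS lowered Bcl2 1.89-fold in Lyz2Cre (log2 change -0.92 ± 0.11 SE, limma adjusted p = 2.27e-06) and 4.26-fold in the BHLHE40-Fl-labelled libraries (-2.07 ± 0.11, adjusted p = 3.36e-11). Between genotype labels it was 2.63-fold lower without LPS (adjusted p = 2.49e-08) and 5.93-fold lower with it (adjusted p = 1.14e-11), in 3 of 3 libraries each time. The interaction of -1.15 ± 0.16 had an adjusted p of 4.95e-05. These counts rest on 37 to 856 reads a library, and 558 exon bases are shared with an antisense transcript, D630008O14Rik, listed at a mean of at most 1.5 in any group.

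Mcl1 (ENSMUSG00000038612, chr3:95658788-95663176, plus strand) encodes the short-lived anti-apoptotic protein on which many myeloid cells depend. It held 24062, 23756 and 25918 in Lyz2Cre controls and 37615, 37998 and 37655 with LPS. In the BHLHE40-Fl-labelled libraries it held 16207, 15205 and 14475 without and 21976, 19823 and 19283 with LPS. All 4 groups were separate, and even the LPS libraries of the BHLHE40-Fl-labelled group stood below each Lyz2Cre control library. On the deposited scale LPS raised Mcl1 1.54-fold (log2 change 0.62 ± 0.07, limma adjusted p = 9.3e-07) and 1.33-fold (0.41 ± 0.07, adjusted p = 0.000104), but with quantile normalization the changes were -0.56 and -0.59 and with equal library totals -0.11 and -0.21. Relative to the median of all genes, the changes were 0.47 and 0.35 with equal totals but -0.48 and -0.49 with quantile normalization. The direction of the LPS change of Mcl1 thus depended on the scaling. The genotype difference kept its direction: Mcl1 was 1.61-fold lower without LPS (adjusted p = 6.31e-07) and 1.85-fold lower with LPS (adjusted p = 2.43e-08).

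Bcl2l1 (ENSMUSG00000007659, chr2:152780668-152831728, minus strand) encodes BCL-XL. The Lyz2Cre libraries held 2033, 2161 and 1616 without LPS and 1333, 1469 and 1468 with it, with no overlap. The BHLHE40-Fl-labelled controls held 1009, 1088 and 1075 and the LPS libraries 735, 1282 and 1246. The last group was split, with replicate 1 below every other library of the study and replicates 2 and 3 above all 3 controls, so the groups overlapped. Mitochondrial genes took 0.756% to 1.92% of reads in the libraries of that group, and the part of this spread in the Bcl2l1 values was not tested. Bcl2l1 was 1.83-fold lower in BHLHE40-Fl-labelled controls (log2 difference -0.86 ± 0.16, limma adjusted p = 0.000296). The LPS decrease in Lyz2Cre (adjusted p = 0.0287) was no longer called when either of Lyz2Cre control replicates 1 and 2 or any of the 3 Lyz2Cre LPS replicates was left out (adjusted p = 0.0516 to 0.116). Without BHLHE40-Fl-labelled LPS replicate 1 the LPS change in that genotype moved from -0.0027 to 0.26 (adjusted p = 0.0487), the genotype difference with LPS from -0.43 to -0.17 (adjusted p = 0.223) and the interaction from 0.43 to 0.69 (adjusted p = 0.0017). The genotype difference with LPS (adjusted p = 0.039) was also lost without any of the 3 Lyz2Cre LPS replicates or BHLHE40-Fl-labelled control replicate 3 (adjusted p = 0.0536 to 0.11). Nor was that difference called by limma with a pseudocount of 0.1 (adjusted p = 0.0587), with no filter (0.0624) or with the 2 groups alone (0.192). The edgeR test did not call it either (adjusted p = 0.0729).

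Bcl2a1b (ENSMUSG00000089929, chr9:89199209-89207827, plus strand) is one of several nearly identical genes for A1, an anti-apoptotic protein and a known target of NF-kB in leukocytes. In Lyz2Cre controls it stood at 889.9, 880.3 and 1720.2, with replicate 3 far above the others, and with LPS at 2644, 3116 and 3083. In BHLHE40-Fl-labelled libraries it stood at 829, 432 and 499 and, with LPS, 2543, 2096 and 2022. The LPS libraries lay above the controls in both genotypes. LPS raised the value 2.53-fold in Lyz2Cre (log2 change 1.41 ± 0.23, limma adjusted p = 4.09e-05) and 3.78-fold in the other genotype (1.97 ± 0.23, adjusted p = 7.86e-07). Between the control groups the difference was -0.97 (adjusted p = 0.00273), and it was not called when these groups were fitted alone (adjusted p = 0.0987). Without Lyz2Cre control replicate 3 that difference was -0.65. With LPS the genotype difference of -0.41 (95% interval -0.89 to 0.07) was not called.

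The A1 genes share much of their sequence, so single members are uncertain. Of the 50-base words of the Bcl2a1b transcript, 57.6% occur in another A1 gene, and 49.1% of its exon bases are also annotated to Gm29094, which the table lists at 0 in every group mean. The stretch upstream of the annotated start is shared as well, and it is shown for that reason. Its part in the LPS changes was not tested. The lines below give RefSeq upstream sequence on mm10 (GRCm38.p6), 5′ to 3′ on the gene's strand, outside any annotated exon. Capitals mark matches to TGANTCA, a loose AP-1 pattern that allows any middle base, searched on both strands. Every match shown reads TGAATCA, so its middle base matched only through that allowance.
Bcl2a1a (chr9:88956780-88956855, plus strand): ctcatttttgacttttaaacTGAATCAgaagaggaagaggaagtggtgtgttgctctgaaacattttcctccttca
Bcl2a1b (chr9:89199089-89199164, plus strand): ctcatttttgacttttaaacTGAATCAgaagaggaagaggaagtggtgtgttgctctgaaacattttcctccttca
Bcl2a1d (chr9:88731915-88731984, minus strand): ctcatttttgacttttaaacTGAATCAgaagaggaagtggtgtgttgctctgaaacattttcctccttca
Bcl2a1c (chr9:114329885-114329960, plus strand): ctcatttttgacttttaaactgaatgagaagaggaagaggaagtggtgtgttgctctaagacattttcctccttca
The Bcl2a1a stretch matched Bcl2a1b at 76 of 76 bases and all 70 bases of the Bcl2a1d stretch matched it in an alignment of 76 columns. Bcl2a1c matched at 73 of 76 and has no match to the loose pattern in its window. The pattern lies at -120 from the RefSeq start in Bcl2a1a, at -164 in Bcl2a1b and at -114 in Bcl2a1d, and 7.81% of all 32851 RefSeq promoter windows of 300 bases hold it. A match in letters is a description and not evidence of a bound factor.

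The other A1 genes rose with LPS as well. Bcl2a1a went from 239, 162 and 188 to 1681, 1989 and 2114 in Lyz2Cre and from 21.1, 43.4 and 19.6 to 1132, 751 and 814 in the BHLHE40-Fl-labelled libraries. Bcl2a1d went from 136, 135 and 126 to 1395, 1822 and 1747 and from 42.2, 41.1 and 37.7 to 1139.9, 797 and 795. Their estimates were larger than those of Bcl2a1b, a difference between genes that was not tested, with log2 changes of 3.30 and 3.62 in Lyz2Cre and 5.02 and 4.44 in the other genotype. Bcl2a1c, which lies apart from the other 3 on chromosome 9, had low values. With LPS it went from 14.1 ± 8.4 to 124 ± 24.1 in Lyz2Cre (8.81-fold) and from 6.4 ± 5.48 to 89.3 ± 16.5 in the other genotype (14-fold). The sum of Bcl2a1a, Bcl2a1b and Bcl2a1d, which does not depend on how counted reads are split between them, was 1265, 1177 and 2034 in Lyz2Cre controls, 5721, 6927 and 6943 with LPS, 892, 516 and 557 in BHLHE40-Fl-labelled controls and 4815, 3645 and 3632 with LPS. Whether reads that match several A1 genes were counted is not given, so the sum may lack some. All 4 groups were separate, and each of the 4 comparisons reached the smallest p that 3 libraries against 3 allow (two-sided exact permutation test, p = 0.1). Bcl2a1b made up 76.6 ± 7.27% of the sum in Lyz2Cre controls and 45.2 ± 0.931% with LPS, and 88.7 ± 4.71% and 55.3 ± 2.36% in the BHLHE40-Fl-labelled groups.

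**Figure D4:**
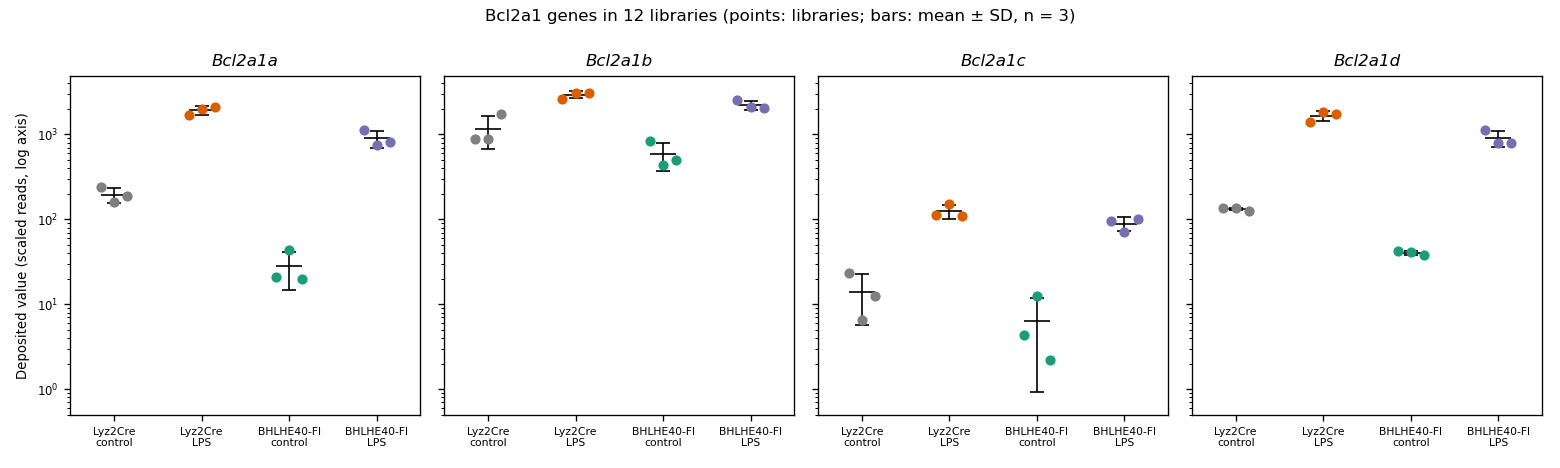
Deposited value (scaled reads, log axis) of the 4 Bcl2a1 genes in the 12 libraries, with points for libraries and bars for mean ± SD (n = 3). LPS libraries lie above control libraries of the same genotype, and Bcl2a1a has means from 28 in BHLHE40-Fl-labelled controls to 1928 in Lyz2Cre LPS libraries.

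Among the effectors, Bak1 (ENSMUSG00000057789, chr17:27019810-27029009, minus strand) rose with LPS and Bax was not called. Bak1 encodes the pore former that sits in the mitochondrial membrane before activation. Its libraries held 2476, 2748 and 2219 in Lyz2Cre controls and 4253, 4588 and 4492 with LPS, and 1432, 1486 and 1555 and 3966, 3960.5 and 4074 in the BHLHE40-Fl-labelled groups. No 2 groups overlapped. LPS raised Bak1 1.79-fold in Lyz2Cre (log2 change 0.85 ± 0.07, limma adjusted p = 2.25e-08), a call that equal library totals did not give (0.12, adjusted p = 0.194), and 2.68-fold in the BHLHE40-Fl-labelled libraries (1.42 ± 0.07, adjusted p = 1.36e-11). Without LPS it was 1.66-fold lower in the BHLHE40-Fl-labelled libraries (adjusted p = 3.83e-07), while with LPS the difference of -0.15 was not called (95% interval -0.31 to 0.00). Part of the gene, 437 exon bases, lies opposite exons of Ggnbp1, whose group means were at most 24.1.

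Bax (ENSMUSG00000003873, chr7:45461697-45466898, minus strand) encodes the effector that moves from the cytosol to mitochondria. It held 1055, 882 and 860.1 in Lyz2Cre controls, 918, 859 and 972 with LPS, 771, 999.5 and 859 in BHLHE40-Fl-labelled controls and 868, 848 and 929 with LPS. The groups overlapped in each comparison. The 95% intervals of its log2 changes were -0.23 to 0.19 and -0.19 to 0.23 for LPS and -0.30 to 0.12 and -0.27 to 0.16 for genotype. With equal library totals Bax was called lower with LPS, at -0.75 and -0.60, which is -0.17 and -0.04 relative to the median of all genes under that scaling.

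Bcl2l11 (ENSMUSG00000027381, chr2:128126038-128162547, plus strand) encodes BIM, a BH3-only protein that binds all anti-apoptotic members. Its values were 1172, 1147 and 1098 in Lyz2Cre controls and 321, 348 and 403 with LPS. In the BHLHE40-Fl-labelled libraries they were 1521, 1650 and 1488 and 717, 934 and 907. All groups were separate, and the order of means, 1553, 1139, 853 and 357, put BHLHE40-Fl-labelled controls at the top and Lyz2Cre LPS libraries at the bottom. LPS lowered it 3.19-fold in Lyz2Cre (-1.68 ± 0.10, limma adjusted p = 1.64e-10) and 1.82-fold in the other genotype (-0.87 ± 0.10, adjusted p = 1.04e-06). It was 1.36-fold higher in the BHLHE40-Fl-labelled libraries without LPS (adjusted p = 0.00242) and 2.39-fold higher with it (adjusted p = 2.97e-08). These directions were the same with equal library totals and quantile normalization.

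Bid (ENSMUSG00000004446, chr6:120891930-120916853, minus strand) encodes the BH3-only protein that caspase 8 cleaves to link death receptors to mitochondria. It held 794, 835 and 855 in Lyz2Cre controls, 1719, 1879 and 1810.4 with LPS, 628, 635 and 628 in BHLHE40-Fl-labelled controls and 2103, 2188 and 2049 with LPS. The BHLHE40-Fl-labelled group was the lowest without LPS and the highest with it. LPS raised Bid 2.18-fold (1.12 ± 0.07, limma adjusted p = 1.1e-10) and 3.35-fold (1.74 ± 0.07, adjusted p = 1.7e-13), also with equal library totals. Between genotype labels it was -0.39 without LPS (adjusted p = 0.000152) and 0.23 with LPS (adjusted p = 0.011), and the latter was lost without Lyz2Cre LPS replicate 1 (adjusted p = 0.056) or BHLHE40-Fl-labelled LPS replicate 2 (adjusted p = 0.0503). Bid shares 628 exon bases with Bcl2l13 on the opposite strand, and the strand setting of the counts is not given in the sources used here.

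Bbc3 (ENSMUSG00000002083, chr7:16308393-16318205, plus strand) encodes PUMA, a BH3-only protein best known as a target of p53 and FOXO factors. The Lyz2Cre controls held 179, 135 and 103 and the LPS libraries 222, 228 and 236, without overlap. The BHLHE40-Fl-labelled controls were spread over 206, 354 and 283, and with LPS the values of 185, 192 and 234 overlapped them. The increase with LPS in Lyz2Cre was 1.65-fold (0.75 ± 0.19, limma adjusted p = 0.00349) and was not called with equal library totals (0.03, which is 0.61 relative to the median of all genes). In the BHLHE40-Fl-labelled libraries the change was -0.44 (adjusted p = 0.0719), and the count tests called it lower (edgeR adjusted p = 0.0293, DESeq2 adjusted p = 0.0451), as did fits without Lyz2Cre control replicate 1 or 3 or without BHLHE40-Fl-labelled control replicate 1 (adjusted p = 0.0111 to 0.0484). Without LPS, Bbc3 was 2.03-fold higher in the BHLHE40-Fl-labelled libraries (adjusted p = 0.000487). With LPS the difference of -0.17 was not called.

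Pmaip1 (ENSMUSG00000024521) encodes NOXA, the BH3-only protein that binds MCL1 and A1. It held 152, 204 and 154 in Lyz2Cre controls and 153, 177 and 180.4 with LPS, which overlapped. The BHLHE40-Fl-labelled libraries held 349.7, 388 and 432 and, with LPS, 239.9, 273 and 266, each above all Lyz2Cre libraries. Without LPS it was 2.29-fold higher in the BHLHE40-Fl-labelled group (log2 difference 1.20 ± 0.13, limma adjusted p = 1.24e-06) and with LPS 1.53-fold higher (0.61 ± 0.13, adjusted p = 0.00143). LPS lowered it in that genotype (-0.58, adjusted p = 0.00131). In Lyz2Cre the change of 0.01 was not called on the deposited scale and was -0.72 with equal library totals (adjusted p = 0.000135), -0.14 relative to the median of all genes. The interaction (adjusted p = 0.0361) was lost with equal totals, in edgeR (adjusted p = 0.069) and when any 1 of 8 libraries was left out: Lyz2Cre control replicates 1 and 3, Lyz2Cre LPS replicates 2 and 3, and, of the BHLHE40-Fl-labelled libraries, control replicates 2 and 3 and LPS replicates 1 and 3 (limma adjusted p = 0.0591 to 0.104).

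Of the 10 genes, 9 have a RefSeq promoter window, 14 windows in all. The E-box CACGTG, the core that BHLHE40 and related factors recognise, occurs in the windows of Bax and Bbc3 and in 7.15% of all windows. A FOXO motif (GTAAACA, both strands) occurs in the windows of Bbc3 and Bcl2l11 and in 3.65% of all windows. The stretches around these matches are shown for the genes that carry them, 5′ to 3′ on the gene's strand of mm10, with the motif in capitals.
Bax E-box (chr7:45466899-45466937, minus strand): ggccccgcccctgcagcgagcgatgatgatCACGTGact
Bbc3 E-box (chr7:16310337-16310406, plus strand): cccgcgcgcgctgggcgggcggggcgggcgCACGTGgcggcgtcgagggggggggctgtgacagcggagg
Bbc3 FOXO motif (chr7:16310064-16310133, plus strand): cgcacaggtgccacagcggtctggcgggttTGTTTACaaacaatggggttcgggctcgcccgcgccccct
Bcl2l11 FOXO motif (chr2:128125788-128125850, plus strand): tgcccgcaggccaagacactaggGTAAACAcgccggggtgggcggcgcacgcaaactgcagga
The E-box lies at -9 and again at 35 in Bax and at -64 in one of the Bbc3 windows. Here too a match in letters is not evidence of a bound factor, and any part of these motifs in the differences was not tested. In the Bbc3 stretch the FOXO motif reads on the opposite strand. The kB consensus occurs in windows of Bcl2l1 and Bbc3 and in 4.51% of all windows, and the core of the interferon-stimulated response element in none of the 14 and in 3.44% of all.

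Ratios of reads within a library do not depend on the scaling. Bcl2l11 reads per 100 Mcl1 reads were 4.87, 4.83 and 4.24 in Lyz2Cre controls, 0.853, 0.915 and 1.07 with LPS, 9.38, 10.9 and 10.3 in BHLHE40-Fl-labelled controls and 3.26, 4.71 and 4.7 with LPS. The ratio was lower with LPS in each genotype and higher in the BHLHE40-Fl-labelled libraries at each treatment, with no overlap. Bcl2 reads per 100 Mcl1 reads went from 2.75 ± 0.151 to 0.947 ± 0.0558 in Lyz2Cre and from 1.68 ± 0.136 to 0.297 ± 0.0098 in the other genotype. Bcl2l1 reads per 100 Mcl1 reads were 7.93 ± 1.5 in Lyz2Cre controls, 3.77 ± 0.197 with LPS, 6.94 ± 0.63 in BHLHE40-Fl-labelled controls and 5.42 ± 1.8 with LPS. This ratio was separate only between the Lyz2Cre groups, and in the other 3 comparisons its libraries overlapped. Bcl2l11 per 100 Bcl2 differed in opposite directions with LPS, from 169 ± 14.3 to 99.6 ± 5.79 in Lyz2Cre and from 611 ± 93.9 to 1427 ± 292 in the BHLHE40-Fl-labelled libraries. Pmaip1 per 100 Mcl1 was 0.695 ± 0.141 and 0.45 ± 0.0386 in Lyz2Cre and 2.57 ± 0.413 and 1.28 ± 0.165 in the other genotype.

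Between the effectors, Bak1 reads per 100 Bax reads were 268 ± 39.4 in Lyz2Cre controls and 486 ± 41.2 with LPS, and 172 ± 20.2 and 454 ± 14.5 in the BHLHE40-Fl-labelled groups. Bid per 100 Bax went from 89.8 ± 12.8 to 197 ± 18.4 and from 72.7 ± 9.01 to 240.2 ± 18.9. Both ratios were higher in every LPS library than in any control library of the same genotype. Over 9 quantities and 4 comparisons, 30 of 36 reached p = 0.1, the smallest that a two-sided exact permutation test of 3 libraries against 3 allows (0.12 after Benjamini-Hochberg adjustment), so no ratio could pass 0.05.

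**Figure D5:**
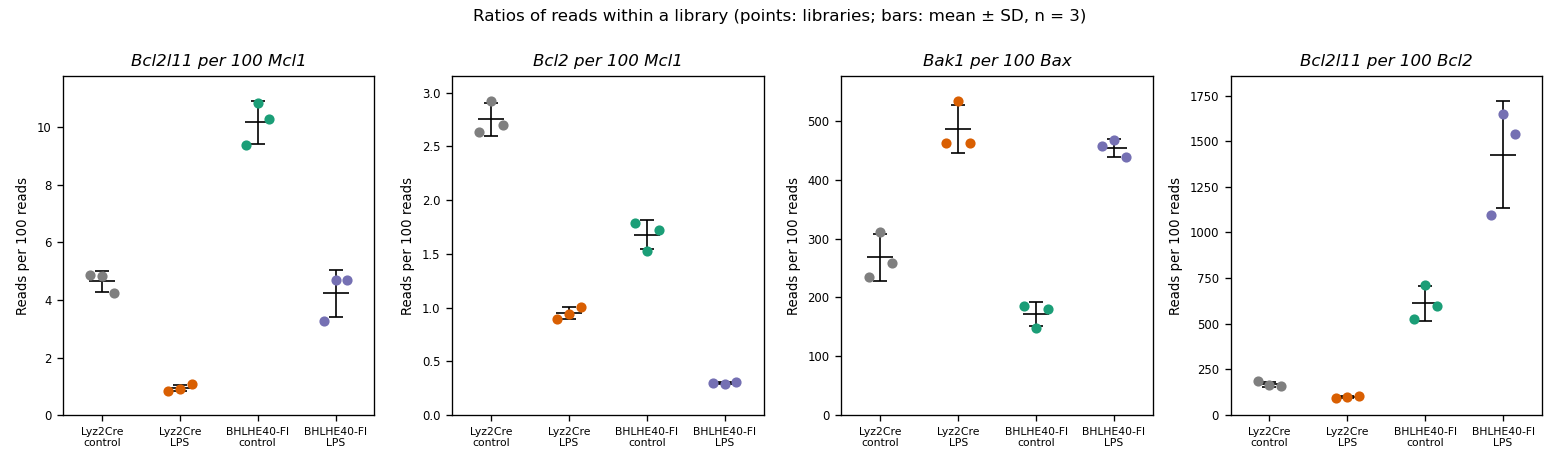
Reads of one gene per 100 reads of another in the same library (linear axes from 0), with points for libraries and bars for mean ± SD (n = 3). Bcl2l11 per 100 Mcl1 is lower with LPS in both genotypes, while mean Bcl2l11 per 100 Bcl2 is 169 without and 99.6 with LPS in Lyz2Cre and 611 and 1427 in the BHLHE40-Fl-labelled libraries.

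Of 16 other genes of the family, 14 were tested, Bcl2l10 and Hrk being at or near 0. LPS raised 4 and lowered 4 in Lyz2Cre, where 48.9% of all tested genes were called, and raised 4 and lowered 5 in the BHLHE40-Fl-labelled libraries, where 50.5% were (4 and 6, and 3 and 6, with equal library totals). Bmf, which encodes a BH3-only protein tied to the cytoskeleton, went from 429.6, 391 and 334 to 16.7, 11 and 26.4 in Lyz2Cre and from 276, 328 and 319.6 to 41, 44.5 and 31.3 in the other genotype (log2 changes -4.42 and -2.96, limma adjusted p = 3.56e-11 and 8.54e-09). Like Bcl2l11 it fell less in the BHLHE40-Fl-labelled libraries. Bnip3, a mitophagy receptor gene induced by hypoxia, was 4.23-fold lower in BHLHE40-Fl-labelled controls (253 ± 58.3 against 1072 ± 372, adjusted p = 1.53e-07) and 9.2-fold lower with LPS (adjusted p = 5.68e-10). Between genotype labels 3 of the 14 were higher and 3 lower in controls, beside 31.6% of all tested genes called, and 4 higher and 5 lower with LPS, beside 37.4% (3 and 3, and 4 and 3, with equal totals). Bok, a relative of Bax and Bak1, was called higher in both, but at values of at most 26.3 in any library, and with LPS not under quantile normalization (adjusted p = 0.0594).

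Genes that act beside the family moved in both directions, and counts over whole lists shifted with the scaling. The counts with LPS in this and the next paragraph stand beside 48.9% of all tested genes called in Lyz2Cre and 50.5% in the BHLHE40-Fl-labelled libraries. Of 14 apoptosome and caspase genes, LPS in Lyz2Cre raised 8 and lowered 5 (6 and 6 with equal library totals), and in the BHLHE40-Fl-labelled libraries it raised 7 and lowered 6 (6 and 7). Casp8, whose product cleaves BID, rose by 1.82 and 1.77 on the log2 scale. Of 8 genes, the caspase 8 brake Cflar and 7 from inhibitor-of-apoptosis families, 5 rose and 1 fell in Lyz2Cre (4 and 4 with equal totals), and 6 rose in the other genotype (4 and, lower, 3). Cflar went from 6733 ± 416 to 69284 ± 1271 and from 2754 ± 67.8 to 59228 ± 1810.3. Of 11 death receptor and adaptor genes 7 rose and 2 fell, and 8 rose and 1 fell in the BHLHE40-Fl-labelled libraries (5 and 6, and 5 and 4, with equal totals), led by the necroptosis genes Mlkl (3.75 and 5.07) and Zbp1 (3.47 and 7.03).

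Known regulators of the 10 genes were also counted. Of 17 p53 pathway genes, a list that holds Bbc3, Bax and Pmaip1 themselves, 5 rose and 6 fell with LPS in Lyz2Cre and 4 rose and 7 fell in the BHLHE40-Fl-labelled libraries (4 and 10, and 4 and 9, with equal totals). The cell cycle inhibitor gene Cdkn1a rose (3.56 and 4.21), while Sesn1 (-3.64 and -3.72) and Gadd45a (-2.83 and -3.57) fell. In controls 6 of the 17 were higher and 1 lower in the BHLHE40-Fl-labelled libraries, beside 31.6% of all tested genes called, and with LPS 5 were higher and 2 lower, beside 37.4% (7 and 0, and 9 and 2, with equal totals). Of 16 genes listed as regulators of BCL2 family transcription or as their stress-response partners, 11 rose and 4 fell with LPS in Lyz2Cre, beside 48.9% of all tested genes called, and 12 rose and 3 fell in the other genotype, beside 50.5% (10 and 5 in each with equal totals). Foxo3, a transcription factor gene whose product is known to act on Bcl2l11 and Bbc3, stood at 2887, 3135 and 2811 in Lyz2Cre controls, 695, 694 and 663 with LPS, 5610.2, 5739.6 and 5926 in BHLHE40-Fl-labelled controls and 659, 696 and 696 with LPS. It was lower with LPS and higher in BHLHE40-Fl-labelled controls, and its LPS libraries overlapped between genotype labels. Any part of Foxo3 in the levels of the 10 genes was not tested. Irf1, an interferon and LPS response gene, rose by 3.83 and 5.72. Of 14 genes of MCL1 turnover and of BCL2 family partners, 6 rose and 4 fell in Lyz2Cre and 5 rose and 5 fell in the other genotype, and with equal totals 2 rose in each while 10 and 11 fell.

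Between genotype labels the same lists gave counts that the scaling could turn, beside 31.6% of all tested genes called in controls and 37.4% with LPS. In controls, 1 apoptosome and caspase gene was higher and 5 lower in the BHLHE40-Fl-labelled libraries on the deposited scale, against 5 higher and 3 lower with equal totals, and with LPS 2 were higher and 7 lower, against 4 and 4. Of the MCL1 turnover and partner genes 2 were higher and 7 lower in controls and 1 higher and 8 lower with LPS, against 5 and 4, and 5 and 1, with equal totals. Of the death receptor and adaptor genes 2 were higher and 5 lower in controls and 4 higher and 2 lower with LPS (2 and 4, and 7 and 2). Of the 8 genes comprising Cflar and the inhibitor-of-apoptosis families 2 were higher and 5 lower in controls (2 and 4) and 1 higher and 3 lower with LPS (4 and 2). Of the 16 transcription and stress-response genes 5 were higher and 5 lower in controls (8 and 4) and 5 higher and 4 lower with LPS (12 and 3).

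For each of the 10 genes the most similar profile over the 12 libraries was sought among 10185 genes with a mean of at least 50, as the root mean square (RMS) difference of log2(value + 1) after centring. Mr1 was nearest to Bcl2, at an RMS difference of 0.17 beside the 1.27 by which Bcl2 itself varied, followed by Pdk1 (0.27) and Slc48a1 (0.29). Lima1 was nearest to Bcl2l11 (0.12, beside a variation of 0.8), followed by Prkar2a (0.16) and Umps (0.18). Man2a1 was nearest to Bid (0.081 beside 0.73), Erap1 to Bak1 (0.1 beside 0.63) and Lilrb4a to Mcl1 (0.085 beside 0.48). Brip1 was nearest to Bcl2a1b (0.26 beside 0.98), Ephx1 to Pmaip1 (0.15 beside 0.51) and Pgd to Bcl2l1 (0.15 beside 0.41). Cdc42ep4 was nearest to Bbc3 (0.24 beside 0.44) and Ccdc12 to Bax (0.081 beside 0.12), and these 2 genes varied the least relative to the distance of their nearest profile. The points share libraries and groups, and the distances are a description.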

How the data were processed

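Peritoneal macrophage RNA was isolated with a column kit and sequenced as Illumina libraries, per the labels' protocols. The submitters' processing notes name mm10, STAR, Cufflinks and Cuffdiff without roles or versions. Which counter, annotation and strand setting were used is not stated there. The deposited values are a signal, namely whole read numbers that were scaled by 1 factor for each library and then rounded, as judged from the values, of which 100% were whole multiples of a step (tolerance 0.06) worth 0.725 to 1.56 per read. Replicates differed by more than sampling noise (chi-square per degree of freedom 7.35 to 72.2 over 12 pairs).

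The 20419 genes that reached 1 in 3 or more libraries were tested with limma 3.58.1 (trend) on log2(value + 1) over all 12 libraries, with 1 mean per group and 5 contrasts. Adjusted p-values are Benjamini-Hochberg values over all tested genes, called below 0.05. The log2(value + 1) scale understates changes of low genes, and folds are ratios of group means. The design had foreseen FPKM values, and the same test was used on this signal. Alternatives were pseudocounts of 0.1 and 5, other filters, 3 other scalings, the compared groups alone, a replicate block, each library left out, and edgeR 4.0.16 (quasi-likelihood) and DESeq2 1.42.0 on the recovered reads. edgeR called 9799 genes for LPS in Lyz2Cre, 10131 for LPS in the other genotype, 6823 and 6999 for genotype without and with LPS, and 3765 for the interaction. The test was tested on simulated data. Ratios used exact permutation tests (scipy 1.17.1). Gene positions are from GENCODE M21 and promoter windows from RefSeq GRCm38.p6.

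The 10 genes and the lists were chosen with earlier results of these data known. All 10 were named, and from the other lists called genes of largest change, up to 4 per list and contrast. Bcl2l10, Hrk, Bnip3l and, for LPS in Lyz2Cre and for genotype with LPS, Foxo3 fall outside this rule and were named after their values were seen. Some genes that the rule would name are not reported here.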

Additional observations from a re-analysis of the deposited data

Results flagged for a closer look

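The LPS change differed between the genotype labels, by the interaction test of limma, for 11 genes of the BCL2 family. Each value is the log2 change in BHLHE40-Fl-labelled libraries minus that in Lyz2Cre libraries. Among the 10 genes described they were Bcl2 (-1.15, adjusted p = 4.95e-05), Bbc3 (-1.19, adjusted p = 0.00477), Pmaip1 (-0.59, adjusted p = 0.0361), Bak1 (0.58, adjusted p = 0.000608), Bid (0.62, adjusted p = 0.000111) and Bcl2l11 (0.80, adjusted p = 0.000600). Pmaip1 was not called with equal library totals (limma adjusted p = 0.0823) or in edgeR (adjusted p = 0.069). For Bbc3 the estimates had opposite signs, 0.75 and -0.44, of which only the first was called. Bak1 and Bid started lower in BHLHE40-Fl-labelled controls, and Bcl2l11 and Bbc3 started higher.

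Among other genes of the family they were Bcl2a1a (1.72), Bmf (1.45), Bcl2a1d (0.82), Bnip3l (-0.75) and Bnip3 (-1.14, not called with quantile normalization, adjusted p = 0.0537). Bcl2a1a and Bcl2a1d share sequence, so how their reads divide is uncertain.

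Of genes that act beside the family, the called interactions of largest size, up to 2 for each list, included the mitochondrial protease gene Htra2 (-0.78), Birc5 (1.27) and Cflar (1.06), Zbp1 (3.56) and Mlkl (1.33), Phlda3 (1.26), Trib1 (1.56) and Fbxw7 (-0.99), whose product marks MCL1 for degradation, and Irf1 (1.89) and Stat5a (1.59). Zbp1 stood at 88.7, 76.6 and 92 in BHLHE40-Fl-labelled controls against 1313, 2250.2 and 688 in Lyz2Cre controls. Groups of 3 libraries are too small for a test of single outlying libraries.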

How the results depend on the processing

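Over 50 results for the 10 genes and the counts of calls, 1368 values under alternative settings were compared. Of these, 1290 were graded the same, 31 were no longer called, 11 became called and 36 changed sign. Some that changed sign also crossed the threshold. For a gene, the same meant an unchanged sign and side of the threshold. For a count of calls it meant a total within 1.5 times of the first, whatever its split by direction. Total counts of called genes, both directions together, stayed within 1.5 times of the first value in all settings run, and so did those of the 10 genes (lowest 4 against 6, for genotype with LPS with 1 library left out). The split by direction did not: with equal library totals 2395 genes were higher and 9498 lower for LPS in Lyz2Cre (5106 and 4871 on the deposited scale), 2619 and 9556 for LPS in BHLHE40-Fl-labelled libraries (5086 and 5234), 5099 and 2526 for genotype in controls (3060 and 3385) and 6206 and 2238 with LPS (3610 and 4033), and of the 10 genes 2 in place of 5 were higher for LPS in Lyz2Cre and 7 in place of 3 lower for LPS in BHLHE40-Fl-labelled libraries. With quantile normalization the log2 change reversed for Mcl1 with LPS (-0.56 in Lyz2Cre and -0.59 in BHLHE40-Fl-labelled libraries), for Bax with LPS in the latter (-0.17), for Bax (0.018 in controls, 0.011 with LPS) and Bak1 (0.054 with LPS) between genotype labels, and for the Bax interaction (-0.0066). With equal library totals it reversed for LPS in Lyz2Cre for Mcl1 (-0.11) and Pmaip1 (-0.72), for LPS in BHLHE40-Fl-labelled libraries for Mcl1 (-0.21) and Bax (-0.60), and between genotype labels for Bax (0.085 in controls, 0.23 with LPS), Bak1 (0.14 with LPS) and Bbc3 (0.11 with LPS). The Pmaip1 change with LPS in Lyz2Cre, near 0, was -3.54e-05 with median-of-ratios scaling, -0.12 in edgeR and -0.010 in DESeq2. With LPS in BHLHE40-Fl-labelled libraries Bax was -0.046 in edgeR and Bcl2l1 0.036 in DESeq2. Equal totals shift all genes together by construction, and for the other reversals the cause was not tested.

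Leaving out 1 library at a time gave ranges across 0 for Bax (-0.075 to 0.072 for LPS in Lyz2Cre, -0.072 to 0.12 for LPS in BHLHE40-Fl-labelled libraries, -0.19 to 0.00056 for genotype in controls, -0.056 to 0.14 for the interaction), for Pmaip1 with LPS in Lyz2Cre (-0.063 to 0.14) and for Bcl2l1 with LPS in BHLHE40-Fl-labelled libraries (-0.14 to 0.26). Replicate numbers gave no sign of pairing: over 18 same-numbered pairs the correlation of deviations was -0.066 to 0.028. Such correlations cannot tell whether same-numbered libraries share a source, which the labels do not give. A fit with the replicate number as a block called 9815, 10083, 6121, 7367 and 3528 genes for LPS in Lyz2Cre, LPS in BHLHE40-Fl-labelled libraries, genotype in controls, genotype with LPS and the interaction, and 8, 7, 9, 6 and 6 of the 10 genes, as without it. Precision is limited by 3 libraries a group and, for Bcl2, by as few as 37 reads.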
